A study of Mus musculus with 16 samples.

Results

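The zinc transporter genes are 10 members of the Slc39 and Slc30 gene families, named by their symbols: the importers Slc39a12, Slc39a14, Slc39a1, Slc39a10 and Slc39a6 and the exporters Slc30a1, Slc30a3, Slc30a4, Slc30a9 and Slc30a10. All 10 were found among the 24060 gene labels of each deposited table. Their levels were measured in RNA from 4 adult mice (animals 970, 971, 974 and 977) at postnatal day 63, male and female, with the sex of each animal not labelled. Every mouse was hemizygous for Aldh1l1-creERT2, a tamoxifen-inducible Cre driven from an astrocyte gene, and heterozygous for Ribotag, an allele in which Cre switches the ribosomal protein Rpl22 to a form tagged with hemagglutinin (HA). The strain was FVB crossed back to C57/Bl6N. Each animal gave 4 libraries: striatal IP (RNA on ribosomes pulled down with an antibody to HA), striatal input (the cleared tissue lysate), hippocampal IP and hippocampal input. Each of these 4 groups therefore held 4 libraries, and the inputs carried the same alleles as the IPs. The dosing that activates the Cre is not given in the sources used here.

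Cells hold almost all of their zinc bound to protein. Slc39 proteins (also called ZIP) bring zinc into the cytosol, from outside the cell or from organelles, and most Slc30 proteins (also called ZnT) move it out of the cytosol, across the cell surface or into vesicles and organelles. Slc30a9, which exports zinc from mitochondria, is counted with the exporters by its family. In the forebrain, a pool of free zinc sits in the synaptic vesicles of some glutamatergic neurons, most densely in the mossy fibres of the hippocampus, and Slc30a3 encodes the transporter that fills these vesicles. Several members also carry other metals, such as manganese for Slc30a10 and Slc39a14. Zinc in excess switches on Slc30a1 and the metallothionein genes in the mouse through the transcription factor Mtf1, which binds short promoter motifs called metal response elements.

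The astrocyte label of the IP was checked against markers. All 10 astrocyte markers examined (among them Aldh1l1, Slc1a3, Aqp4 and Gja1) rose in both IPs over input, and their summed level was 6931 to 12064 scaled FPKM in striatal IP against 544 to 661 in striatal input, and 10649 to 14223 in hippocampal IP against 651 to 844 in hippocampal input. Neuronal RNA remained in the IPs, with a median over 10 pan-neuronal markers of 8.27% to 23.2% of the same animal's input in striatum and 4.84% to 9.95% in hippocampus, highest in animal 974 in both regions. The median over 8 oligodendrocyte markers was 8.65% to 32.0% of input in striatum and 6.07% to 18.5% in hippocampus, also highest in animal 974. In hippocampal IP 7 of the 8 fell and Cnp rose (mean 66.9 against 25.4 scaled FPKM). Of 4 mural markers tested, 3 fell and Pdgfrb rose in both IPs (10.3 against 0.907 in striatum, 10.1 against 1.11 in hippocampus). The summed ependymal and choroid plexus markers had 2.34 to 67.6 in hippocampal IP against 5.32 to 15.6 in hippocampal input. Estimated depth, in units of 1e6 fragments, was 13.98 to 21.81 in striatal IP, 4.15 to 8.98 in striatal input, 18.9 to 22.7 in hippocampal IP and 9.05 to 12.3 in hippocampal input. The striatal inputs of animals 971 and 974 were the shallowest libraries (5.79 and 4.15), and results of the members that rest on them are given with and without them. For other genes, fold changes are given only with them. Unless stated otherwise, levels are scaled FPKM (fragments per unit of transcript length and of library depth, divided by a factor per library) and fold changes are differences of log2(scaled FPKM + 1) ± SE from a limma fit, a scale that understates changes of low genes. Calls were made at a Benjamini-Hochberg adjusted p under 0.05 over 13467 genes. In bulk RNA such as this, fewer cells of a type and less RNA per cell cannot be told apart.

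The members lie apart in the genome (GENCODE vM21, GRCm38/mm10). Slc39a12 spans chr2:14388316-14494977 on the plus strand, Slc30a3 spans chr5:31086106-31108237 on the minus strand, Slc30a10 spans chr1:185454848-185468762 on the plus strand and Slc30a1 spans chr1:191906767-191913247 on the plus strand. The library kit does not mark strand, and the exons of 3 members overlap those of a gene on the opposite strand: 533 bases (9.13%) of Slc30a10 with Gm2061, 468 bases (8.92%) of Slc30a1 with 1700034H15Rik and 130 bases (2.37%) of Slc30a4 with 4930417H01Rik. Reads from those stretches cannot be assigned to one gene of the pair.

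The promoters shown are those of Slc39a12, the member with the largest IP enrichment, and of Slc30a10 and Slc30a1, the exporters that rose in hippocampal IP. They run from 250 bases before to 50 bases after the annotated start (RefSeq, GRCm38.p6), and 8 of the 10 members had such a window. Capitals mark matches to the metal response element core, searched as TGCACNC and TGCGCNC on both strands, so that a match on the other strand reads GNGTGCA or GNGCGCA.

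Slc39a12 promoter (chr2:14388148-14388447, plus strand): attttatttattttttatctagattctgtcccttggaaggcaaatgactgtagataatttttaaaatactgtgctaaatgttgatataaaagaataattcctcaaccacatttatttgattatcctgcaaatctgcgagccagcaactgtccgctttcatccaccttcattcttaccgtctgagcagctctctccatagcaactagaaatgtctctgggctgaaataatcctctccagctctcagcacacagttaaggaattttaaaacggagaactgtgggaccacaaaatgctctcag

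Slc30a10 promoter (chr1:185454598-185454897, plus strand): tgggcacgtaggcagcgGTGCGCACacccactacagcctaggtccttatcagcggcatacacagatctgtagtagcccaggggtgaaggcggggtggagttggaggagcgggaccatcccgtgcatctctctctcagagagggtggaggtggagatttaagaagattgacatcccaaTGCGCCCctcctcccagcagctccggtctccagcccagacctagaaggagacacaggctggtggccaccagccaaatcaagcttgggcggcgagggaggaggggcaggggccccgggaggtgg

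Slc30a1 promoter (chr1:191906531-191906830, plus strand): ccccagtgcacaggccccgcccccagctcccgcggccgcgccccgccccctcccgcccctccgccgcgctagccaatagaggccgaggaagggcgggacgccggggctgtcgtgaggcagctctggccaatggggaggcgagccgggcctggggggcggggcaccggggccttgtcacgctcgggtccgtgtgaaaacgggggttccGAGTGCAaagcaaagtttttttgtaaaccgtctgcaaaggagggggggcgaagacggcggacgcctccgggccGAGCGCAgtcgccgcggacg

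The Slc39a12 window held 0 matches. The Slc30a10 window held 3, of which a pair on opposite strands share all but their outer bases and form the first capital run, and the Slc30a1 window held 2. Among the other members, Slc30a4 had 3 matches and Slc30a3 had 1 in the window nearest its annotated start, while Slc30a9, Slc39a1 and Slc39a10 had 0. The nearest Slc39a10 window lies 32924 bases from the GENCODE start of that gene, so its 0 does not describe that start. Of 32851 such windows in the RefSeq table, 25.7% held at least 1 match, 7.11% at least 2 and 1.97% at least 3. A match is a run of letters in the window, and binding was not measured.

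**Figure D1:**
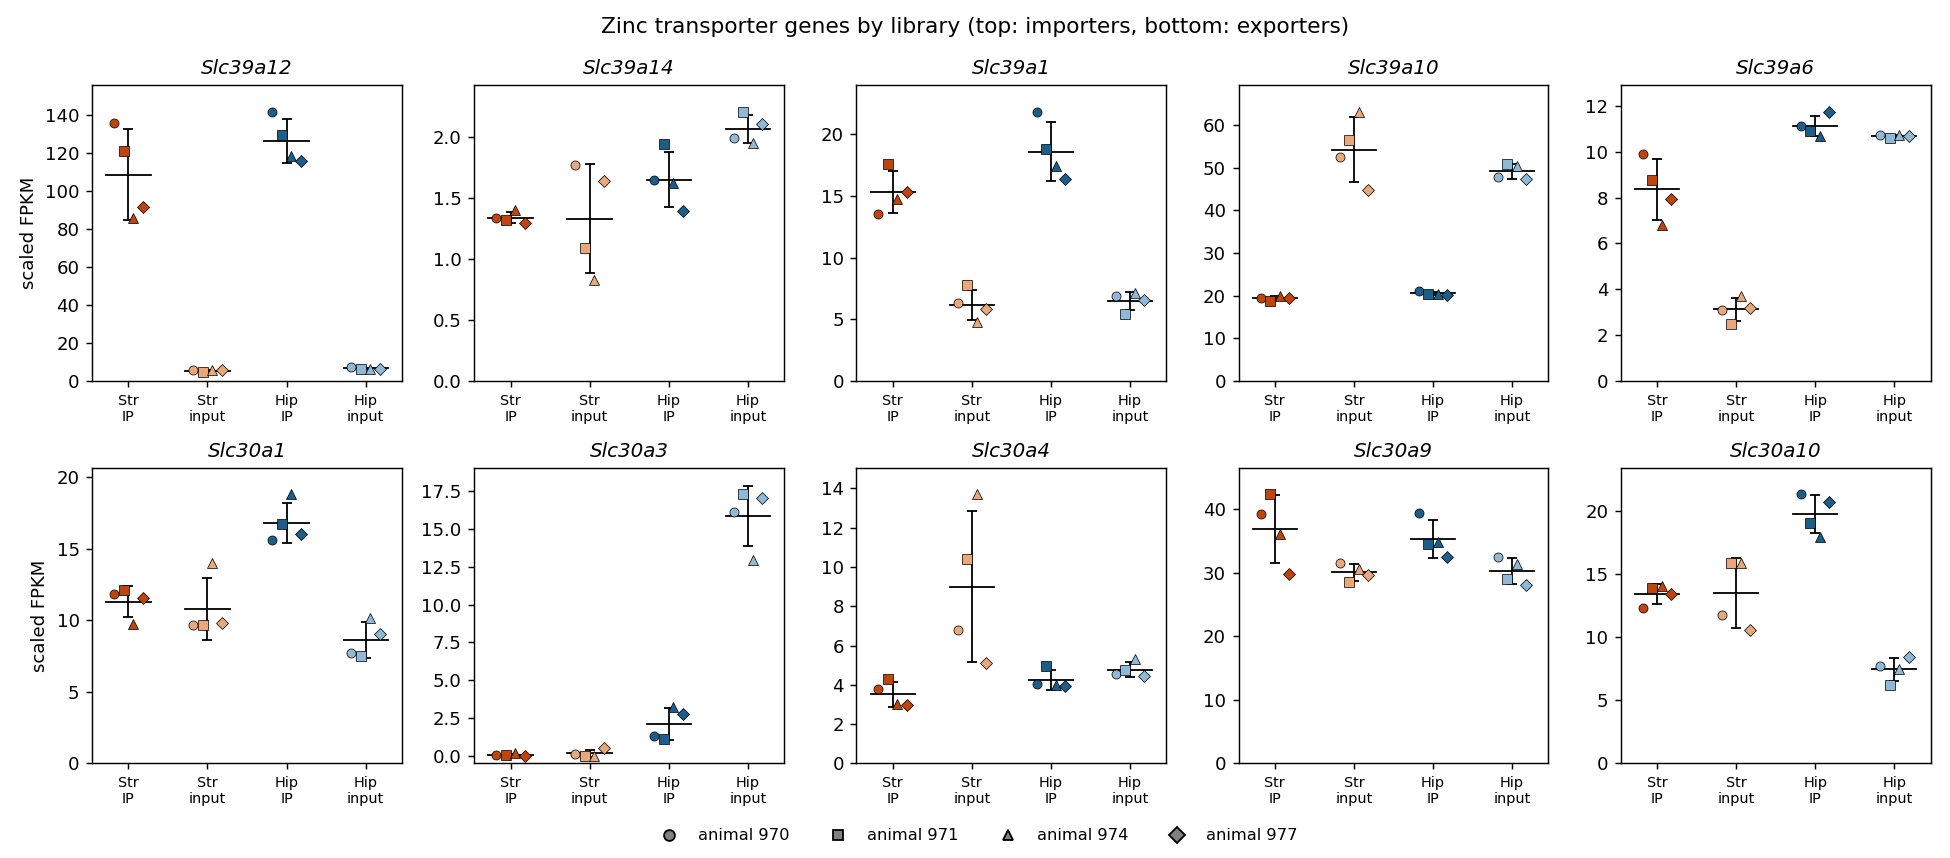
Level of each zinc transporter gene in each of the 16 libraries, in scaled FPKM on a linear axis that differs between panels. Str is striatum and Hip hippocampus, marker shape gives the animal, horizontal lines are means over 4 animals and bars are SD. Slc39a12 lies between 85.7 and 142 in the IPs and between 4.84 and 7.19 in the inputs, Slc39a10 is lower in the IPs, and Slc30a3 is high in hippocampal input.

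In both regions the IPs carried more Slc39a12 and Slc39a1 and less Slc39a10 than the inputs. Against striatal input, 4 of 10 members were higher in striatal IP (Slc39a12, Slc39a1, Slc39a6 and Slc30a9), 2 were lower (Slc39a10 and Slc30a4) and 4 did not pass. Of all 13467 genes tested, 65.2% passed in that comparison, 32.1% higher and 33.1% lower. Against hippocampal input, 4 of 10 were higher in hippocampal IP (Slc39a12, Slc39a1, Slc30a10 and Slc30a1), 2 were lower (Slc39a10 and Slc30a3) and 4 did not pass, where 65.7% of all genes passed, 28.6% higher and 37.1% lower. Slc30a3 was tested only through its high hippocampal inputs, and without it 1 of 9 members was lower. The members' counts were thus near the background in each direction, and the median fold change over the members was 0.05 in striatum and 0.14 in hippocampus, against -0.03 and -0.15 over all genes tested. Without scaling factors the median over all genes fell by 0.22 in striatum and by 0.36 in hippocampus, and small IP fold changes below are to be read against that shift.

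**Figure D2:**
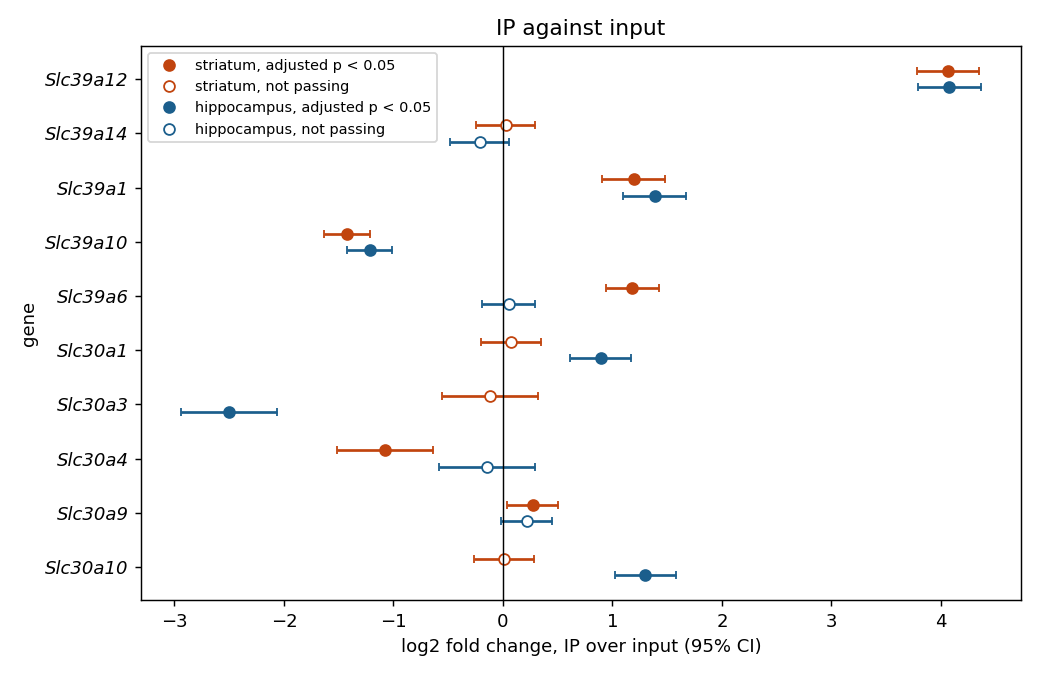
Log2 fold change of IP over input for each zinc transporter gene, in striatum (orange) and hippocampus (blue), with 95% confidence intervals. Filled points passed at adjusted p under 0.05. Slc39a12 lies near 4 in both regions, and the regions part at Slc39a6, Slc30a1, Slc30a4 and Slc30a10, and at Slc30a3, which was near 0 in all striatal libraries.

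Slc39a12 encodes an importer that is found mainly in brain. It had 136, 121, 85.7 and 91.4 scaled FPKM in the striatal IPs of animals 970, 971, 974 and 977, against 5.58, 4.84, 5.89 and 5.48 in the striatal inputs. In hippocampus it had 142, 129, 118 and 116 in the IPs, against 7.19, 6.36, 6.21 and 6.39 in the inputs. Every IP lay far above every input, and the striatal IPs of animals 974 and 977 were the lowest of the 8. The log2 fold change was 4.06 ± 0.13 in striatum (adjusted p = 7.20e-12) and 4.08 ± 0.13 in hippocampus (adjusted p = 2.96e-12). The IP level was 14.6 to 25.1 times the same animal's input in striatum and 18.2 to 20.3 times in hippocampus. For comparison, the median over the 10 astrocyte markers was 1335% to 2089% of input in striatum and 1659% to 2006% in hippocampus. The ranges of Slc39a12 and of that median overlapped in both regions.

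Between regions, Slc39a12 did not pass with the scaling factors applied. The striatal and hippocampal IPs overlapped, with 108.6 ± 24.1 scaled FPKM in striatal IP and 126 ± 11.8 in hippocampal IP (SD, n = 4 each) and a log2 difference of -0.24 (95% interval -0.52 to 0.04, adjusted p = 0.301). The striatal IP was lower in 4 of 4 animals. The striatal inputs lay below all hippocampal inputs, with a difference of -0.23 (-0.51 to 0.06, adjusted p = 0.194) that passed without scaling factors (-0.29, adjusted p = 0.0417). The difference between the regions' enrichments was -0.01 (-0.41 to 0.39, adjusted p = 0.974).

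Slc39a10, an importer of the cell surface that is closely related to Slc39a6, ran the other way. Its level was 19.5, 18.7, 20.01 and 19.6 scaled FPKM in the striatal IPs, against 52.4, 56.6, 63.1 and 44.8 in the striatal inputs. Hippocampal IPs had 21.1, 20.5, 20.4 and 20.2, against 47.7, 51.0, 50.3 and 47.4 in the hippocampal inputs. The 8 IPs were close to one another, and every input lay above every IP. Slc39a10 fell by 1.42 ± 0.10 on the log2 scale in striatal IP (adjusted p = 3.06e-09) and by 1.22 ± 0.10 in hippocampal IP (adjusted p = 1.49e-08). In the IPs it stood at 31.7% to 43.6% of input in striatum and 40.2% to 44.2% in hippocampus, above the pan-neuronal range given earlier. It did not pass between the IPs (-0.08, -0.29 to 0.13, adjusted p = 0.716), where the ranges did not overlap, nor between the inputs (0.13, -0.08 to 0.34, adjusted p = 0.314).

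The importer make-up of the libraries followed from these levels. Slc39a12 made up 58.4% ± 4.69 of the summed FPKM of the 14 Slc39 genes in striatal IP, against 5.95% ± 0.52 in striatal input, and 59.8% ± 1.11 in hippocampal IP against 6.50% ± 0.38 in hippocampal input (SD, n = 4 each). Slc39a10 held 10.7% ± 1.77 in striatal IP and 59.0% ± 4.98 in striatal input, and 9.75% ± 0.54 in hippocampal IP and 48.8% ± 1.71 in hippocampal input. The leading importer by FPKM was therefore Slc39a12 in every IP and Slc39a10 in every input. Summed Slc39 level was 157 to 211 scaled FPKM in striatal IP against 84.7 to 98.0 in striatal input, and 198 to 232 in hippocampal IP against 98.5 to 102 in hippocampal input. Summed Slc30 level moved less, at 77.0 to 93.6 in striatal IP against 70.1 to 90.9 in striatal input, and 93.5 to 102 in hippocampal IP against 80.7 to 82.4 in hippocampal input.

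**Figure D3:**
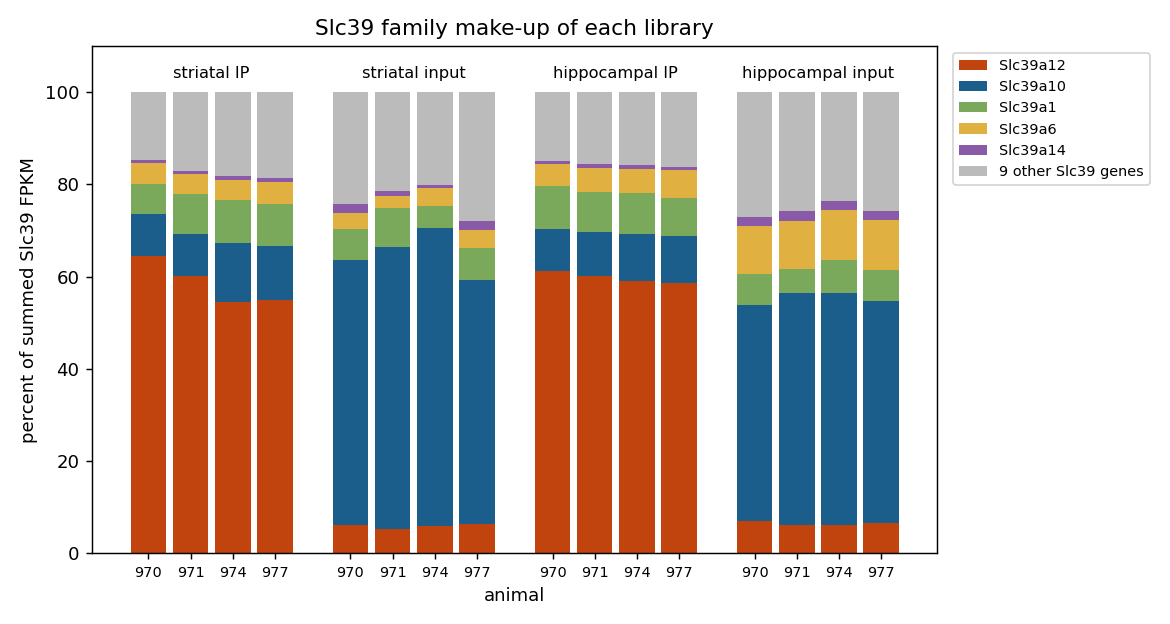
Share of the summed FPKM of 14 Slc39 genes held by each of the 5 importers studied and by the 9 other family members, in percent, with 1 bar per library. Slc39a12 takes 54.5% to 64.4% of striatal IP and 58.7% to 61.2% of hippocampal IP, and Slc39a10 takes 46.7% to 64.4% of the inputs.

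Slc39a1 encodes a widely used importer of the cell surface. It had 13.5, 17.6, 14.8 and 15.3 scaled FPKM in the striatal IPs, against 6.29, 7.74, 4.75 and 5.86 in the striatal inputs. The hippocampal IPs had 21.8, 18.8, 17.5 and 16.3, against 6.88, 5.41, 7.11 and 6.57 in the hippocampal inputs. No IP overlapped the inputs of its region. Slc39a1 rose by 1.20 ± 0.14 in striatal IP (adjusted p = 9.53e-07) and by 1.39 ± 0.14 in hippocampal IP (adjusted p = 1.42e-07). The regional differences did not pass, at -0.26 (-0.55 to 0.02, adjusted p = 0.251) between IPs and -0.08 (-0.36 to 0.21, adjusted p = 0.689) between inputs.

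Slc39a6, the relative of Slc39a10 named after an estrogen-regulated gene of breast cancer cells (LIV-1), differed most between regions among the 5 importers studied. Its level was 9.91, 8.78, 6.80 and 7.93 scaled FPKM in the striatal IPs, against 3.07, 2.49, 3.72 and 3.19 in the striatal inputs. In the hippocampal IPs it was 11.1, 10.9, 10.7 and 11.7, against 10.7, 10.6, 10.7 and 10.7 in the hippocampal inputs. The striatal inputs were lowest, the striatal IPs lay between them and all hippocampal libraries, and IP and input overlapped in hippocampus. Slc39a6 rose by 1.18 ± 0.11 in striatal IP (adjusted p = 1.62e-07), while in hippocampal IP the fold change was 0.05 (-0.19 to 0.30, adjusted p = 0.704). Without scaling factors the hippocampal value turned to -0.40 and passed (adjusted p = 0.00390). The difference between the regions' enrichments was 1.13 ± 0.16 (adjusted p = 0.000187).

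The level of Slc39a6 was lower in striatum in both kinds of library. In striatal input it fell by 1.51 ± 0.11 relative to hippocampal input (adjusted p = 3.69e-08), and in striatal IP by 0.38 ± 0.11 relative to hippocampal IP (adjusted p = 0.0375), in 4 of 4 animals. The difference between IPs did not pass once any animal was left out, with adjusted p of 0.0787 without 970, 0.104 without 971, 0.107 without 974 and 0.274 without 977, and not without scaling factors either (-0.26, adjusted p = 0.153).

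Slc39a14, an importer of zinc, iron and manganese, was the lowest of the 5 importers studied in every group. It had 1.33, 1.31, 1.40 and 1.30 scaled FPKM in the striatal IPs, against 1.77, 1.09, 0.825 and 1.64 in the striatal inputs. The hippocampal IPs had 1.64, 1.94, 1.62 and 1.39, against 1.99, 2.20, 1.95 and 2.10 in the hippocampal inputs. The hippocampal IPs all lay below the inputs, but neither enrichment passed, at 0.02 (-0.25 to 0.29, adjusted p = 0.883) in striatum and -0.21 (-0.48 to 0.06, adjusted p = 0.155) in hippocampus. The hippocampal value passed without scaling factors (-0.53, adjusted p = 0.00682) and without the striatal inputs of 971 and 974 (-0.21, adjusted p = 0.0408). Slc39a14 was lower in striatal than in hippocampal input by a log2 change of -0.41 ± 0.13 (adjusted p = 0.0189). That call was lost without the striatal inputs of 971 and 974, which had its lowest values (-0.18, adjusted p = 0.256), without animal 971 (-0.35, adjusted p = 0.148) and without animal 974 (-0.32, adjusted p = 0.0946).

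Among the exporters, Slc30a10 and Slc30a1 both rose in hippocampal IP, and both were lower in striatal than in hippocampal IP. Slc30a10, which exports manganese and has been linked to zinc, had 12.3, 13.9, 14.1 and 13.5 scaled FPKM in the striatal IPs, against 11.8, 15.9, 15.9 and 10.5 in the striatal inputs. The hippocampal IPs had 21.3, 19.1, 17.97 and 20.7, against 7.70, 6.19, 7.52 and 8.43 in the hippocampal inputs. Striatal IP and input overlapped, while every hippocampal IP was 2.39 to 3.08 times its own input. Slc30a10 rose by 1.30 ± 0.13 in hippocampal IP (adjusted p = 1.99e-07), against a fold change of 0.01 (-0.27 to 0.29, adjusted p = 0.954) in striatal IP. The difference between those enrichments was -1.29 ± 0.18 (adjusted p = 0.000180). It stayed past the threshold without the striatal inputs of 971 and 974, which had the highest values of their group (-1.05, adjusted p = 0.000242).

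The region order of Slc30a10 was opposite in the 2 kinds of library. In striatal IP it fell by 0.52 ± 0.13 relative to hippocampal IP (adjusted p = 0.0136), and in striatal input it rose by 0.77 ± 0.13 relative to hippocampal input (adjusted p = 0.000245), with no overlap of ranges in either. The IP difference lost its call without animal 970 (-0.45, adjusted p = 0.147) and without animal 977 (-0.50, adjusted p = 0.0684). The input difference was 0.53 (adjusted p = 0.00291) without the striatal inputs of 971 and 974.

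Slc30a1 encodes the zinc exporter of the cell surface and is a known target of Mtf1. Its level was 11.8, 12.1, 9.72 and 11.6 scaled FPKM in the striatal IPs, against 9.67, 9.67, 14.0 and 9.82 in the striatal inputs. In the hippocampal IPs it was 15.6, 16.8, 18.8 and 16.1, against 7.74, 7.52, 10.2 and 9.06 in the hippocampal inputs. The striatal ranges overlapped: the input of animal 974 lay above all 4 striatal IPs, and the IP of animal 974 lay below the input of animal 977. Slc30a1 rose by 0.89 ± 0.13 in hippocampal IP (adjusted p = 1.49e-05) and had a fold change of 0.07 (-0.20 to 0.35, adjusted p = 0.638) in striatal IP. Without animal 974 the striatal fold change was 0.26 and passed (adjusted p = 0.0320). The difference between the regions' enrichments was -0.82 ± 0.18 (adjusted p = 0.00682), and it lost its call without animal 971 (-0.84, adjusted p = 0.0613).

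Slc30a1 also fell by 0.53 ± 0.13 in striatal IP relative to hippocampal IP (adjusted p = 0.0121), in 4 of 4 animals and with no overlap. That call was lost without animal 970 (-0.59, adjusted p = 0.0546), without 971 (-0.57, adjusted p = 0.0628) and without 977 (-0.56, adjusted p = 0.0809), and kept without 974 (-0.42, adjusted p = 0.0163). Between inputs Slc30a1 did not pass (0.29, 0.01 to 0.56, adjusted p = 0.0970).

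Slc30a3, the synaptic vesicle transporter, was found mainly in the hippocampal libraries. It had 0.0294, 0.0281, 0.173 and 0 scaled FPKM in the striatal IPs and 0.123, 0, 0 and 0.523 in the striatal inputs, which correspond to an estimated 7 and 14 fragments in all over 4 libraries each. The hippocampal IPs had 1.29, 1.12, 3.21 and 2.77, against 16.1, 17.3, 12.96 and 17.0 in the hippocampal inputs, or an estimated 288 and 1580 fragments. Hippocampal inputs were far above hippocampal IPs, and both were above every striatal library. Slc30a3 passed the filter on low values (1 FPKM in 4 libraries) through the hippocampal libraries alone, so a regional difference was built into its being tested. The hippocampal inputs were needed for this, since the hippocampal IP of animal 971 had 0.884 FPKM before scaling. The test of hippocampal IP against input is therefore tied to the filter as well, and no p-value is given for it. Slc30a3 fell by 2.50 ± 0.21 in hippocampal IP relative to input. Its fold change in striatal IP was -0.12 (-0.55 to 0.32, adjusted p = 0.640), so that a difference was not detectable at this depth.

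Striatal input was 3.87 ± 0.21 lower than hippocampal input in Slc30a3 on this scale. Striatal IP was 1.49 ± 0.21 lower than hippocampal IP. These sizes depend on the pseudocount: at 0.1 in place of 1 they were -6.36 and -3.78. The difference between the regions' enrichments was 2.39 ± 0.29, where the hippocampal fall stands beside values near 0 in both striatal groups. No p-value is given for these regional contrasts. The gene was admitted to testing only through its hippocampal values, so the tests cannot show that the regions differ.

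Neuronal markers were measured beside Slc30a3. In the hippocampal IPs of animals 970, 971, 974 and 977 the gene stood at 8.01%, 6.44%, 24.8% and 16.2% of the same animal's input, beside a median over 6 forebrain glutamatergic markers of 6.69%, 7.50%, 13.6% and 9.67%. Animal 974 was highest in both. The summed level of those 6 markers (Slc17a7, Neurod2, Neurod6, C1ql2, Bhlhe22 and Prox1) was 2.99 to 7.42 scaled FPKM in striatal IP, 12.7 to 14.1 in striatal input, 32.2 to 48.1 in hippocampal IP and 308 to 372 in hippocampal input. Most of the striatal sums was Prox1, with a mean of 4.63 in striatal IP and 8.05 in striatal input. The next highest, Slc17a7, had 0.596 and 3.14. In the 4 striatal IPs, Neurod6, C1ql2 and Bhlhe22 were each at 0 in 1 library. Their part in the Slc30a3 values was not tested.

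Slc30a4, an exporter into endosomes and secretory vesicles that is mutated in the lethal milk mouse, varied most among the striatal inputs. It had 3.80, 4.29, 3.02 and 2.97 scaled FPKM in the striatal IPs, against 6.81, 10.4, 13.7 and 5.10 in the striatal inputs. The hippocampal IPs had 4.05, 4.98, 4.00 and 3.92, against 4.58, 4.74, 5.33 and 4.44 in the hippocampal inputs. The striatal inputs of 971 and 974 were the highest of the 16 libraries, and the other 2 striatal inputs were still above every striatal IP. Slc30a4 fell by 1.08 ± 0.21 in striatal IP relative to input (adjusted p = 0.000251) and had a fold change of -0.14 (-0.58 to 0.30, adjusted p = 0.562) in hippocampal IP, which passed without scaling factors (-0.55, adjusted p = 0.00553).

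The difference between the regions' enrichments of Slc30a4 was -0.93 ± 0.29 (adjusted p = 0.0432), and striatal input was 0.71 ± 0.21 above hippocampal input (adjusted p = 0.0135). Without the striatal inputs of 971 and 974 these were -0.48 (adjusted p = 0.114) and 0.26 (adjusted p = 0.222). The enrichment difference also lost its call without animal 970 (-1.06, adjusted p = 0.118), without 971 (-0.86, adjusted p = 0.224) and without 974 (-0.73, adjusted p = 0.116), and the input difference without 971 (0.62, adjusted p = 0.109) and without 974 (0.55, adjusted p = 0.0550). The IPs did not pass (-0.22, -0.66 to 0.22, adjusted p = 0.584).

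Slc30a9, which exports zinc from mitochondria, was the most abundant exporter and nearly level across groups. Its level was 39.2, 42.3, 36.0 and 29.8 scaled FPKM in the striatal IPs, against 31.5, 28.5, 30.6 and 29.7 in the striatal inputs, and 39.4, 34.5, 34.8 and 32.4 in the hippocampal IPs, against 32.4, 28.9, 31.3 and 28.1 in the hippocampal inputs. Each IP was above its own animal's input in both regions, although the ranges overlapped. The fold change was 0.27 ± 0.11 in striatum (adjusted p = 0.0381) and 0.22 (-0.01 to 0.45, adjusted p = 0.0917) in hippocampus. Neither direction held without scaling factors, at -0.01 (adjusted p = 0.935) in striatum and -0.27 (adjusted p = 0.0381) in hippocampus. The striatal call was also lost without animal 970 (0.26, adjusted p = 0.124), without 971 (0.18, adjusted p = 0.282), without 974 (0.29, adjusted p = 0.0791) and without the striatal inputs of 971 and 974 (0.25, adjusted p = 0.103). Regional differences of Slc30a9 were 0.05 (-0.18 to 0.28, adjusted p = 0.839) between IPs and -0.0046 (-0.24 to 0.23, adjusted p = 0.978) between inputs.

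Read across genes, which FPKM allows because it is per length, the members ordered differently in IP and input. In striatal IP the order by mean was Slc39a12, Slc30a9, Slc39a10, Slc39a1, Slc30a10, Slc30a1, Slc39a6, Slc30a4, Slc39a14 and Slc30a3, and the ranges overlapped between Slc39a1 and Slc30a10 and between Slc30a1 and Slc39a6. Striatal input ran Slc39a10, Slc30a9, Slc30a10, Slc30a1, Slc30a4, Slc39a1, Slc39a12, Slc39a6, Slc39a14 and Slc30a3, with overlap between each pair of neighbours from Slc30a10 to Slc39a12. In hippocampal IP the order was Slc39a12, Slc30a9, Slc39a10, Slc30a10, Slc39a1, Slc30a1, Slc39a6, Slc30a4, Slc30a3 and Slc39a14, with overlap between neighbours from Slc39a10 to Slc30a1 and between Slc30a3 and Slc39a14. Hippocampal input ran Slc39a10, Slc30a9, Slc30a3, Slc39a6, Slc30a1, Slc30a10, Slc39a12, Slc39a1, Slc30a4 and Slc39a14, with overlap between neighbours from Slc30a1 to Slc39a1.

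The regional counts leave out Slc30a3, which was tested only through its hippocampal values. Between the regions' astrocyte IPs, 0 of the remaining 9 members were higher and 3 were lower in striatum (Slc30a1, Slc30a10 and Slc39a6), where 12.2% of all genes tested passed, 7.24% higher and 4.95% lower. At an unadjusted p under 0.05, the same 3 members passed and 0 passed upward, where 24.3% of all genes passed in either direction. Between inputs, 2 were higher in striatum (Slc30a10 and Slc30a4) and 2 lower (Slc39a6 and Slc39a14), where 36.5% of genes passed, 15.4% higher and 21.1% lower. The difference between enrichments passed for 4 members, where 14.1% of genes passed: Slc39a6 was more enriched in striatum, a direction called for 8.77% of genes, and 3 were less enriched (Slc30a1, Slc30a10 and Slc30a4), a direction called for 5.37%. Without scaling factors the median of that difference over all genes moved up by 0.15. These comparisons share libraries with one another and with the IP enrichments, so their calls are not separate evidence. The astrocyte markers themselves had a median fold change of -0.58 between striatal and hippocampal IP, with 6 of 10 lower in striatum and 0 higher. Of the oligodendrocyte markers, 5 of 8 were higher in striatal than in hippocampal IP and 0 lower, with a summed level of 88.3 to 134 scaled FPKM in striatal IP and 83.6 to 88.1 in hippocampal IP. Of the 7 markers of striatal projection neurons tested, 6 were higher and 0 lower, with a sum of 189.6 to 322 in striatal IP and 69.9 to 86.1 in hippocampal IP. Most of that hippocampal sum was Ppp1r1b, with a mean of 72.8 in hippocampal IP, 11.4 in hippocampal input and 105 in striatal IP. The other markers of that list had means of at most 2.77 in hippocampal IP and at least 4.15 in striatal IP. The part of these marker shifts in the lower striatal IP values of Slc30a1, Slc30a10 and Slc39a6 was not tested.

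**Figure D4:**
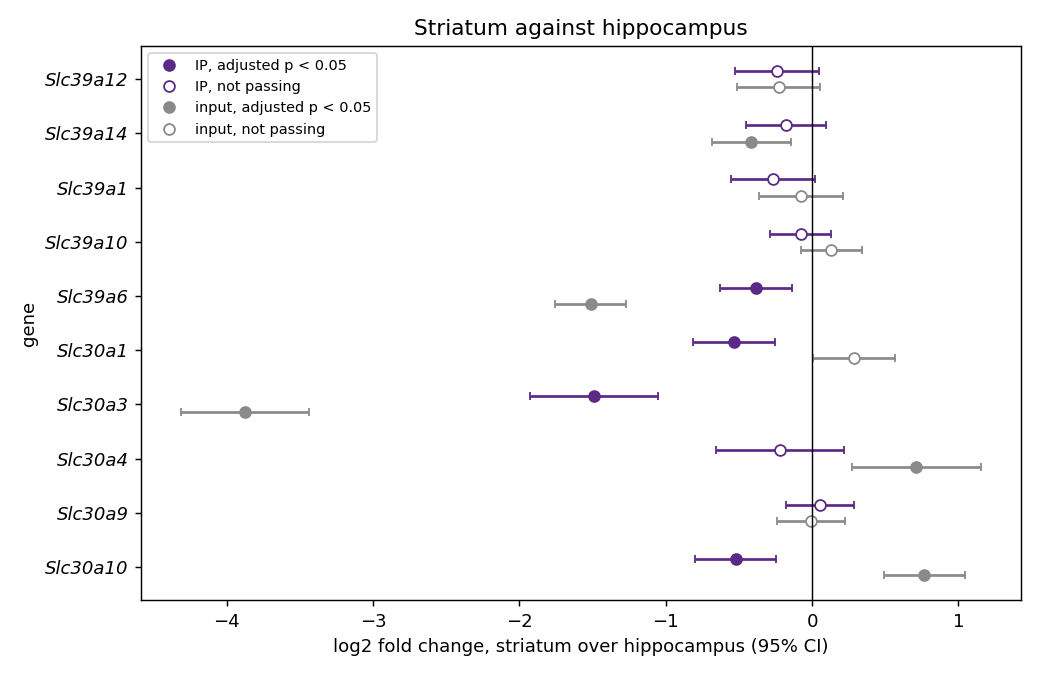
Log2 fold change of striatum over hippocampus for each zinc transporter gene, in IP (purple) and in input (grey), with 95% confidence intervals. Filled points passed at adjusted p under 0.05. Slc30a10 lies below 0 in IP and above 0 in input, and Slc30a3, tested only through its hippocampal values, has the largest fall in both.

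Of the 9 other Slc39 genes, 6 were tested. In striatal IP 4 rose and 0 fell (median 0.55), where 32.1% of all genes tested were higher and 33.1% lower. In hippocampal IP 4 rose and 2 fell (median 0.48), where 28.6% were higher and 37.1% lower. Slc39a7, which releases zinc from the endoplasmic reticulum, had 6.52 ± 0.94 scaled FPKM in striatal IP against 2.62 ± 0.85 in striatal input (log2 fold change 1.08 ± 0.17, adjusted p = 2.89e-05) and 8.26 ± 0.80 in hippocampal IP against 4.06 ± 0.72 in hippocampal input (0.88 ± 0.17, adjusted p = 0.000210). Slc39a11 rose by 0.61 and 0.57 and Slc39a13, a transporter of the secretory pathway, by 0.68 and 0.64 in striatal and hippocampal IP (adjusted p from 0.000287 to 0.00202). Slc39a9 rose by 0.50 in striatal IP (adjusted p = 0.000560) and by 0.38 in hippocampal IP (adjusted p = 0.00477). Without scaling factors 3 of these calls were lost: Slc39a13 had 0.22 in hippocampal IP (adjusted p = 0.227), and Slc39a9 had 0.24 in striatal IP (adjusted p = 0.0897) and turned to -0.07 in hippocampal IP (adjusted p = 0.623). Slc39a3 fell by 0.49 in hippocampal IP (adjusted p = 0.00129) and had -0.12 in striatal IP (adjusted p = 0.356). Slc39a4, Slc39a5 and Slc39a8 were too low to be tested, with group means of at most 0.121, 0.106 and 0.694 scaled FPKM.

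Of the 5 other Slc30 genes, 4 were tested, and 3 rose and 1 fell in striatal IP while 2 rose and 1 fell in hippocampal IP. Over all genes tested, 32.1% were higher and 33.1% lower in striatal IP, and 28.6% were higher and 37.1% lower in hippocampal IP. Slc30a6, which works in the early secretory pathway, rose by 0.49 ± 0.11 in striatal IP (adjusted p = 0.000689) and by 0.64 ± 0.11 in hippocampal IP (adjusted p = 5.41e-05). Slc30a7, of the Golgi, rose by 0.36 ± 0.14 (adjusted p = 0.0359) and by 0.56 ± 0.14 (adjusted p = 0.00253). Slc30a5, the partner of Slc30a6, rose by 0.44 ± 0.12 in striatal IP (adjusted p = 0.00342) and had 0.23 in hippocampal IP (adjusted p = 0.101). Without scaling factors Slc30a7 had 0.11 in striatal IP (adjusted p = 0.381) and 0.15 in hippocampal IP (adjusted p = 0.216), and Slc30a5 had 0.19 in striatal IP (adjusted p = 0.253), so these calls were lost. Slc30a2 fell by 0.61 ± 0.23 in striatal IP (adjusted p = 0.0282) and by 0.70 ± 0.23 in hippocampal IP (adjusted p = 0.0126). Its striatal inputs of animals 970, 971, 974 and 977 had 0.817, 1.73, 2.68 and 0.867 scaled FPKM. The striatal IPs had 0.904, 0.849, 0.416 and 0.271. The shallow inputs of 971 and 974 were thus the highest of their group, and the IP of animal 970 lay above its own input. Slc30a8, the zinc transporter of insulin granules, was too low to be tested and was listed at 0 in all striatal libraries. By limma, 0 of the 10 other family members tested passed between the IPs or in the difference between enrichments. The unadjusted p was under 0.05 for 1 of them in each, Slc39a2 between the IPs (0.54, adjusted p = 0.191), where 24.3% of all genes had such a p, and Slc39a3 in the difference (0.36, adjusted p = 0.144), where 29.0% did.

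The genes that bind zinc, sense it or sort Slc30a3 to vesicles were measured beside the transporters, and 8 of 10 were tested. In striatal IP 4 rose and 1 fell, where 32.1% of all genes tested were higher and 33.1% lower. In hippocampal IP 5 rose and 3 fell, where 28.6% were higher and 37.1% lower. The metallothionein genes Mt1 and Mt2, whose proteins hold zinc in the cytosol, were among the strongest. Mt1 had 408, 552, 292 and 388 scaled FPKM in the striatal IPs against 56.9, 72.3, 54.4 and 53.7 in the striatal inputs (log2 fold change 2.74 ± 0.17, adjusted p = 9.59e-10). In hippocampus Mt1 had 754, 676, 619.7 and 553 in the IPs against 83.3, 66.5, 64.8 and 72.3 in the inputs (3.16 ± 0.17, adjusted p = 1.46e-10). Mt2 rose by 3.60 ± 0.20 in striatal IP (adjusted p = 3.54e-10) and by 3.39 ± 0.20 in hippocampal IP (adjusted p = 4.78e-10). Both were lower in striatal than in hippocampal IP, by a log2 change of -0.69 for Mt1 (adjusted p = 0.0127) and -0.66 for Mt2 (adjusted p = 0.0443). The Mt2 difference did not pass without scaling factors (-0.53, adjusted p = 0.146). The metallothionein genes are near copies of one another, and how reads that match several were counted is not given in the sources used here.

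Ap3d1, a subunit of the adaptor complex that sorts Slc30a3 to synaptic vesicles and also works in other cells, rose by 0.99 ± 0.11 in striatal IP (adjusted p = 5.75e-07) and by 0.60 ± 0.11 in hippocampal IP (adjusted p = 0.000112). Its hippocampal value did not pass without scaling factors (0.13, adjusted p = 0.411). Tmem163, a zinc-binding protein of vesicles, fell by 1.38 ± 0.22 in striatal IP (adjusted p = 4.62e-05), and its fold change in hippocampal IP was -1.998 ± 0.22 (adjusted p = 6.80e-07). Ap3b2, the neuronal subunit of the same complex, was the 1 gene of the list whose enrichment differed between regions (1.15 ± 0.26, adjusted p = 0.00713), and it is named after its value was seen. It had 0.30 in striatal IP (adjusted p = 0.169) and -0.86 in hippocampal IP (adjusted p = 0.000694). The striatal inputs of animals 970, 971, 974 and 977 had 10.5, 11.6, 5.22 and 11.5 scaled FPKM of Ap3b2, lowest in the shallowest library, that of 974. Mt4 and the zinc receptor gene Gpr39 were too low to be tested, with group means of at most 0.0378 and 0.0787 scaled FPKM.

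**Figure D5:**
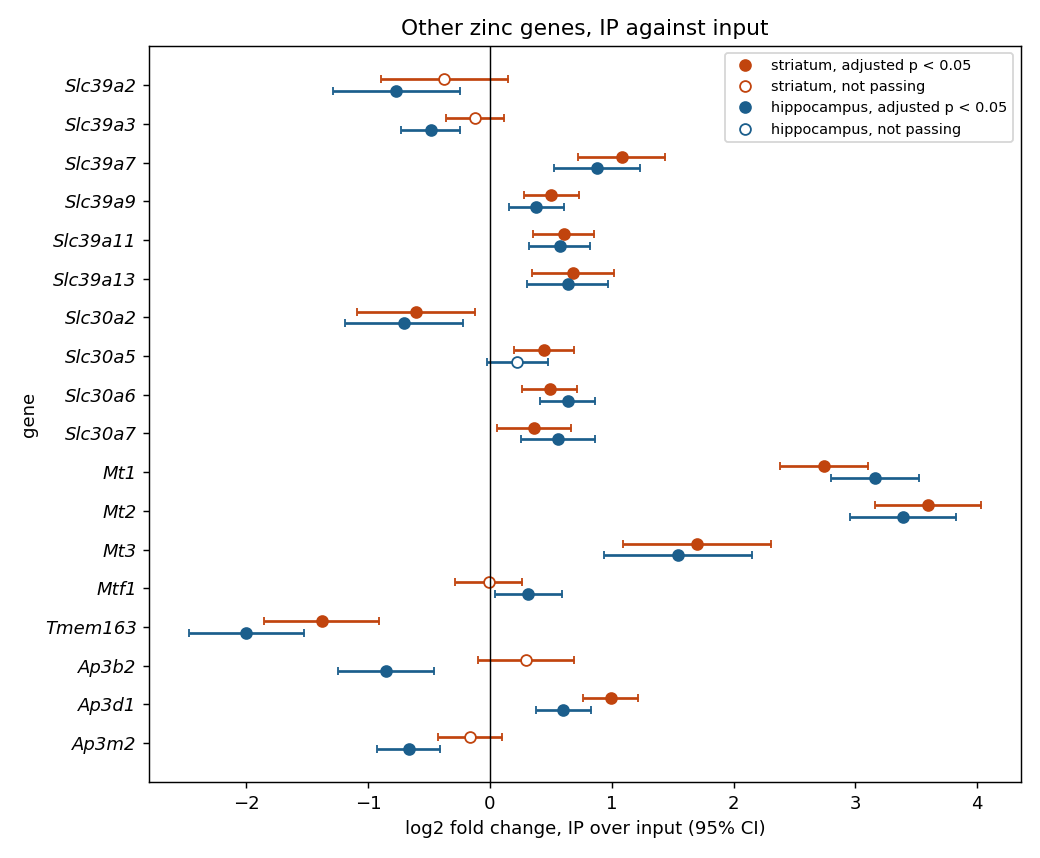
Log2 fold change of IP over input for the tested other Slc39 and Slc30 genes and for genes of zinc binding, sensing and vesicle sorting, in striatum (orange) and hippocampus (blue), with 95% confidence intervals and filled points at adjusted p under 0.05. Mt1 and Mt2 stand near 3 in both regions, and Tmem163 lies lowest.

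The tested genes most like 4 of the members were found by Pearson r over the 16 libraries on the log2 scale, as a description, since the libraries share groups and animals. Nearest to Slc39a12 were Tns3, Axl and Cyp2j9 (r = 0.998 each). Slc30a3 was nearest to Ptpru, Grm2 and Slc9a4 (r = 0.993, 0.993 and 0.993), and Grm2, a glutamate receptor gene, had 0.0519 scaled FPKM in striatal IP, 0.255 in striatal input, 1.62 in hippocampal IP and 11.2 in hippocampal input. Slc30a10 was nearest to Igsf11 (r = 0.960), Ptprm (0.951) and Peli2 (0.942). Igsf11, an adhesion gene, had 114 scaled FPKM in striatal IP, 89.1 in striatal input, 155 in hippocampal IP and 39.4 in hippocampal input. The low gene Slc39a14 was nearest to Supt4a (0.948), Cib2 (0.942) and Rnasek (0.922), whose highest group mean was hippocampal input.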

How the data were processed

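The 16 deposited tables hold FPKM, a value per gene that the authors had normalized for length and depth. The submitters' processing notes name bcl2fastq 2.17, STAR, HTSeq and mm10; how FPKM was derived from counts is not given in the sources used here. FPKM was divided by a trimmed-mean scaling factor per library (0.777 to 1.28; 30% of log ratios and 5% of levels trimmed). Genes reaching 1 FPKM in 4 or more libraries were kept (13467, all 10 members among them), and log2(scaled FPKM + 1) was modelled by limma 3.58.1 (R 4.3.3; 4 groups, 12 residual degrees of freedom, trended and robust variance), with Benjamini-Hochberg adjustment. The code was tested on simulated data. Count tests did not apply, since the unit is FPKM. Of the marker lists, 1 gene each of forebrain glutamatergic and striatal projection neurons is not reported here, and those lists were summed without them.

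Depth was estimated from the steps between low FPKM values: 1232 of 1387 low genes (88.8%) gave whole fragments within 0.1, so depths and the fragment numbers of Slc30a3 are estimates. Of the labels, 23 read as dates and are not used here.

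The same 4 animals gave all groups, so libraries pair by animal, per the labels. The correlation of deviations from group means was 0.303 to 0.525 between striatal and hippocampal IP and -0.0084 to 0.0848 between striatal IP and striatal input. The animal entered as a block in an alternative.

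The members, the gene lists and the tests were chosen with earlier results of these data known. All members are named, and of each other list the 4 genes with the smallest p that passed in an IP comparison, and those not tested. Sequences are from RefSeq (GRCm38.p6) and coordinates from GENCODE vM21. Figures used Python 3.11.15, pandas 2.3.3 and matplotlib 3.10.9.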

Additional observations from a re-analysis of the deposited data

Results flagged for a closer look

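The difference of IP enrichment between striatum and hippocampus was tested as an interaction on the log2 scale. Of the 9 members without Slc30a3, 1 was higher (Slc39a6, 1.13) and 3 were lower (Slc30a1, -0.82, Slc30a10, -1.29, and Slc30a4, -0.93). Of all genes tested 14.1% passed, 8.77% higher and 5.37% lower. Slc30a3 also passed (2.39) but is left out of that count. For Slc30a3 the value is no measure of a striatal enrichment, since the hippocampal fall is set against a gene near 0 in both striatal groups. Its call is not evidence of a regional difference, because the gene was tested only through its hippocampal values. For Slc30a4 the value rests on the striatal inputs of animals 971 and 974.

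In 3 of 40 groups of 4 libraries, 1 animal lay far from the others, where chance gives about 1 in 20. Slc30a1 had 14.0 scaled FPKM in the striatal input of animal 974, against 9.67 to 9.82 in the others. Slc30a3 had 0.173 scaled FPKM in the striatal IP of animal 974, an estimated 5 fragments, against at most 0.0294 in the others. Slc30a4 had 4.98 scaled FPKM in the hippocampal IP of animal 971, against 3.92 to 4.05 in the others.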

How the results depend on the processing

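Fold changes were recomputed under 13 alternatives. With the animal as replicate block, each count of members kept its value (4 higher and 2 lower in each IP enrichment, 0 and 4 between IPs, 2 and 3 between inputs, 2 and 3 in the difference of enrichments, Slc30a3 included) and no member's call changed. Over all genes in the main fit, 32.1% were higher and 33.1% lower in striatal IP, and 28.6% and 37.1% in hippocampal IP. The shares were 7.24% and 4.95% between IPs, 15.4% and 21.1% between inputs, and 8.77% and 5.37% in the difference of enrichments. Calls of Slc30a3 in these counts are no evidence, since it was tested only through its hippocampal values. Without scaling factors 6 members were lower in hippocampal IP. Between inputs 1 member was higher with only the compared groups fitted and 1 without the striatal inputs of 971 and 974. Leaving out 1 animal gave 1 to 3 lower members in the difference of enrichments, 1 to 3 between IPs and 1 to 2 higher members between inputs. Single fold changes turned sign in 28 cases, of which the only one called in its main value was Slc30a9 in striatal IP. Without scaling factors, which lowers the IP fold change of all genes, the striatal IP values became -0.19 for Slc30a1, -0.26 for Slc30a10, -0.15 for Slc39a14 and -0.011 for Slc30a9, the hippocampal IP values -0.27 for Slc30a9 and -0.40 for Slc39a6, the difference of enrichments 0.0018 for Slc39a1 and 0.19 for Slc39a12, and the IP difference 0.049 for Slc39a10. The difference of enrichments of Slc39a12 was 0.019 at a pseudocount of 0.1 and 0.0038 at 0.5. Without the striatal inputs of 971 and 974, the input difference was 0.021 for Slc30a9 and -0.019 for Slc39a10, and the striatal IP value of Slc39a14 was -0.21. Leaving out 1 animal moved the striatal IP value over -0.00080 to 0.26 for Slc30a1, -0.095 to 0.073 for Slc30a10, -0.23 to 0.048 for Slc30a3 and -0.0995 to 0.11 for Slc39a14. It moved the input difference over -0.032 to 0.0072 for Slc30a9 and -0.25 to 0.065 for Slc39a1, the difference of enrichments over -0.028 to 0.14 for Slc30a9 and -0.10 to 0.12 for Slc39a12, and the IP difference over -0.027 to 0.11 for Slc30a9. Apart from the scaling shift and the libraries left out, the cause of these changes was not tested. Calls were lost in 30 cases and gained in 6, and those not given above were as follows. The difference of enrichments of Slc30a4 was lost at a pseudocount of 0.1 (adjusted p = 0.0531) and with no filter (adjusted p = 0.0620). With only the compared groups fitted, the input differences of Slc30a4 (adjusted p = 0.0654) and Slc39a14 (adjusted p = 0.0781) and the striatal enrichment of Slc30a9 (adjusted p = 0.147) were lost and its hippocampal enrichment was gained (adjusted p = 0.0296). Without scaling factors the input difference of Slc39a12 was gained (adjusted p = 0.0417). At a filter of 5 FPKM in 4 libraries Slc39a14 was not tested.

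Precision is set by 4 animals per group and by the shallow striatal inputs, whose depth was 4.15 to 8.98 (1e6 fragments). Slc30a3 was at or near 0 in all striatal libraries, so its striatal enrichment could not be measured.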

Other observations

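The deposited libraries hold Mt3, a metallothionein gene known from brain, at 6.01 ± 0.99 scaled FPKM in striatal IP against 1.39 ± 1.15 in striatal input, and at 9.37 ± 1.37 in hippocampal IP against 2.57 ± 0.53 in hippocampal input (SD, n = 4 each). It rose by 1.70 in striatal IP (adjusted p = 7.26e-05) and by 1.54 in hippocampal IP (adjusted p = 0.000176) by limma. The striatal inputs of animals 970, 971, 974 and 977 had 2.52, 0.915, 0 and 2.11 scaled FPKM of Mt3, lowest in the shallow libraries of 971 and 974. In hippocampal IP, Mt1 averaged 650.8 scaled FPKM.

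Mtf1, the zinc-sensing transcription factor gene, had 9.18 ± 1.69 scaled FPKM in striatal IP against 9.17 ± 0.77 in striatal input, and 10.2 ± 1.81 in hippocampal IP against 7.95 ± 0.19 in hippocampal input. It rose by 0.31 in hippocampal IP (adjusted p = 0.0439), a value that turned to -0.14 without scaling factors (adjusted p = 0.293), and its fold change in striatal IP was -0.01 (adjusted p = 0.951). Mt3 and Mtf1 were named after their values were seen.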
